A study of Mus musculus with 9 samples.

Results

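The 10 genes described here encode the central parts of antigen presentation by the major histocompatibility complex (MHC), and they were found by symbol in the deposited count table, which holds 54532 genes. The 5 class II genes are H2-Aa, H2-Ab1, H2-Eb1, Cd74 and Ciita, and the 5 class I genes are H2-K1, H2-D1, B2m, Tap1 and Tapbp. All 10 matched and all 10 passed the filter on low counts. They were followed by polyA-selected bulk RNA sequencing in mouse prostate of 3 Srd5a2 genotypes, with 3 libraries each: wild type (WT, Srd5a2+/+), heterozygous (Het, Srd5a2+/-) and null (KO, Srd5a2-/-). Srd5a2 encodes the type II 5-alpha-reductase that turns testosterone into dihydrotestosterone. Heterozygous males were bred with wild-type C57BL6 females, and KO males came from the third generation. No group was treated. The labels used here state no age or prostate lobe and do not say that each library is a separate animal. The p-values therefore cover only the spread among these libraries, which may be technical. The comparisons ask how these genes stand when 1 or both Srd5a2 alleles are lost.

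MHC class I molecules sit on nearly all nucleated cells and show peptides from inside the cell to CD8+ T cells. Their heavy chain (H2-K1 or H2-D1) pairs with beta-2 microglobulin (B2m), after the transporter Tap1 has brought peptides into the endoplasmic reticulum and tapasin (Tapbp) has held the empty heavy chain beside it. MHC class II molecules are made mainly by dendritic cells, macrophages and B cells and show peptides from outside the cell to CD4+ T cells. They pair an alpha chain (H2-Aa) with a beta chain (H2-Ab1), travel with the invariant chain Cd74, and are switched on by the transactivator Ciita. The Y box, an inverted CCAAT motif bound by the factor NF-Y, is part of the promoter module through which Ciita and its class I relative Nlrc5 act. Interferon-gamma raises both classes in many cell types.

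On GRCm38 (mm10), 7 of the 10 genes lie on chromosome 17 within 1.35 megabases, from 33915899 to 35267499, the H2 complex of the mouse. H2-Ab1 (ENSMUSG00000073421, 34263209 to 34269418), H2-Aa (ENSMUSG00000036594, 34282744 to 34287827) and H2-Eb1 (ENSMUSG00000060586, 34305877 to 34316199) are neighbours there. Tapbp (ENSMUSG00000024308, 33915899 to 33929288), H2-K1 (ENSMUSG00000061232, 33996017 to 34000333) and Tap1 (ENSMUSG00000037321, 34187553 to 34197225) precede them, and H2-D1 (ENSMUSG00000073411, 35262730 to 35267499) follows. The targeted gene, Srd5a2, is on the same chromosome (74016955 to 74047916), 38.7 to 40.1 megabases away. B2m (ENSMUSG00000060802) is on chromosome 2 (122147686 to 122153083) and Ciita (ENSMUSG00000022504) on chromosome 16 (10480059 to 10528418).

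The stretches just before the start sites of H2-Aa and H2-Eb1 are shown because these genes varied together across libraries, and those of H2-K1 and B2m because these partners did not. They are the 150 bases before a RefSeq start on GRCm38.p6, at chr17:34287824-34287973 (minus strand), chr17:34305717-34305866 (plus), chr17:34000348-34000497 (minus) and chr2:122147537-122147686 (plus). Capitals mark motifs found by a search of both strands.
H2-Aa: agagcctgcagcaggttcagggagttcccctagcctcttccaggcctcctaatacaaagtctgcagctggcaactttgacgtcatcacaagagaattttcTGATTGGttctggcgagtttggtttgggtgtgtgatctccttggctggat
H2-Eb1: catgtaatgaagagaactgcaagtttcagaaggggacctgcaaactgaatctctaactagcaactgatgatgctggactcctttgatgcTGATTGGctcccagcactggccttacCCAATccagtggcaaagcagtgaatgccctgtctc
H2-K1: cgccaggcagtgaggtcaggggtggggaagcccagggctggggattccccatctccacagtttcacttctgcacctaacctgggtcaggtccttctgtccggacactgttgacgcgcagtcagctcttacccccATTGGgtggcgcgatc
B2m: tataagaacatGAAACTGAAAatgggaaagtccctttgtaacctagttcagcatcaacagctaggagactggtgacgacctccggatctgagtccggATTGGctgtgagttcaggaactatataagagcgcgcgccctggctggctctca

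The motifs described here were ATTGG (the Y box core), TGATTGG (a fuller Y box, which contains the core), and GAAA followed by any 2 bases and GAAA (the core of an interferon-stimulated response element). RefSeq windows of 250 bases before to 50 after the start were found for 7 of the 10 genes, namely H2-Aa, H2-Eb1 and all 5 class I genes. All 7 held ATTGG, which 37.4% of all 32851 such windows held. TGATTGG was in 5 of the 7 (H2-Aa, H2-Eb1, H2-K1, H2-D1 and Tap1), against 7.82% of all windows. That of H2-K1 lies on the other strand, just past the printed stretch. Among 14 other class II pathway genes with a window, 10 held ATTGG and 6 TGATTGG. A gene counted if any of its windows held the motif, and some genes had several, whereas the shares are per window. The interferon element core was in B2m alone among the 7 (3.44% of all windows). A match describes the letters and is not shown to be a working site.

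Facts of the libraries come first because some of them touch the results. Total counts ran from 16233392 to 24017791 per library. Srd5a2 itself stood at 2.30, 5.50 and 8.81 CPM (counts scaled to library depth with TMM factors) in the WT libraries and at 0.933, 0.511 and 1.15 CPM in the KO libraries. The Het mean was 3.74 ± 1.41 CPM (SD, n = 3), with every KO library under every WT and Het library. The KO against WT log2 fold change was -2.67 (SE 0.62, edgeR adjusted p = 0.9996 over all genes, DESeq2 adjusted p = 0.0405). WT 1, WT 3 and Het 2 held almost no Sbp, a ventral prostate secretion (0.993, 16 and 7.26 CPM, against 34341 to 143859 CPM elsewhere). The summed level of the listed seminal vesicle genes ran from 6587 CPM in Het 1 to 358847 CPM in Het 2. Svs2 reached 230388 CPM in a Het library, while Svs1, Svs3a, Svs3b and Svs6 did not pass 77.0 CPM in any Het library. In KO those last genes had means of 1414 to 4537 CPM, so the listed genes did not run together. Epithelial markers were high throughout, at 2616 to 3683 summed CPM over 11 genes. Dendritic cell markers were low, at 8.33 to 28.0 summed CPM over 12 genes. Several defining lymphocyte genes were at 0 in every Het library, as given below.

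Per unit of transcript length the 10 genes differed widely, with B2m and the class I heavy chains above every class II gene. FPKM, the authors' deposited value scaled for transcript length and library depth, is the scale of this paragraph. B2m had a median level of 2265 FPKM over the 9 libraries (804 to 3823), above every library's value for any other member. H2-K1 followed with 272 (216 to 352) and H2-D1 with 211 (170 to 244), whose ranges overlap. Cd74 came next at 88.0 (61.5 to 139) and Tapbp at 54.8 (44.2 to 63.3). The 3 class II chains were close to each other, with H2-Eb1 at 36.0 (18.7 to 65.2), H2-Ab1 at 28.3 (19.1 to 46.7) and H2-Aa at 23.2 (15.1 to 41.4), all overlapping. Tap1 stood at 4.51 (3.83 to 6.37), and Ciita was lowest at 0.102 (0 to 0.223). In each library H2-K1 was 6.61 to 17.3 times as high as H2-Aa.

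Within class II, the stoichiometry was held more tightly than the level. The H2-Aa to H2-Ab1 ratio of FPKM stayed between 0.779 and 0.974 in the 9 libraries, and the Cd74 to H2-Aa ratio between 2.77 and 4.08. Meanwhile the level itself varied 2.80-fold for H2-Aa, 2.46-fold for H2-Ab1, 3.56-fold for H2-Eb1 and 2.27-fold for Cd74 (highest over lowest CPM). For comparison, the median of the 13950 tested genes with a count in every library was 2.29-fold. Class I spread less except for 1 gene: H2-K1 varied 1.61-fold, H2-D1 1.41-fold, Tapbp 1.45-fold and Tap1 1.66-fold, but B2m 4.77-fold.

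**Figure D1:**
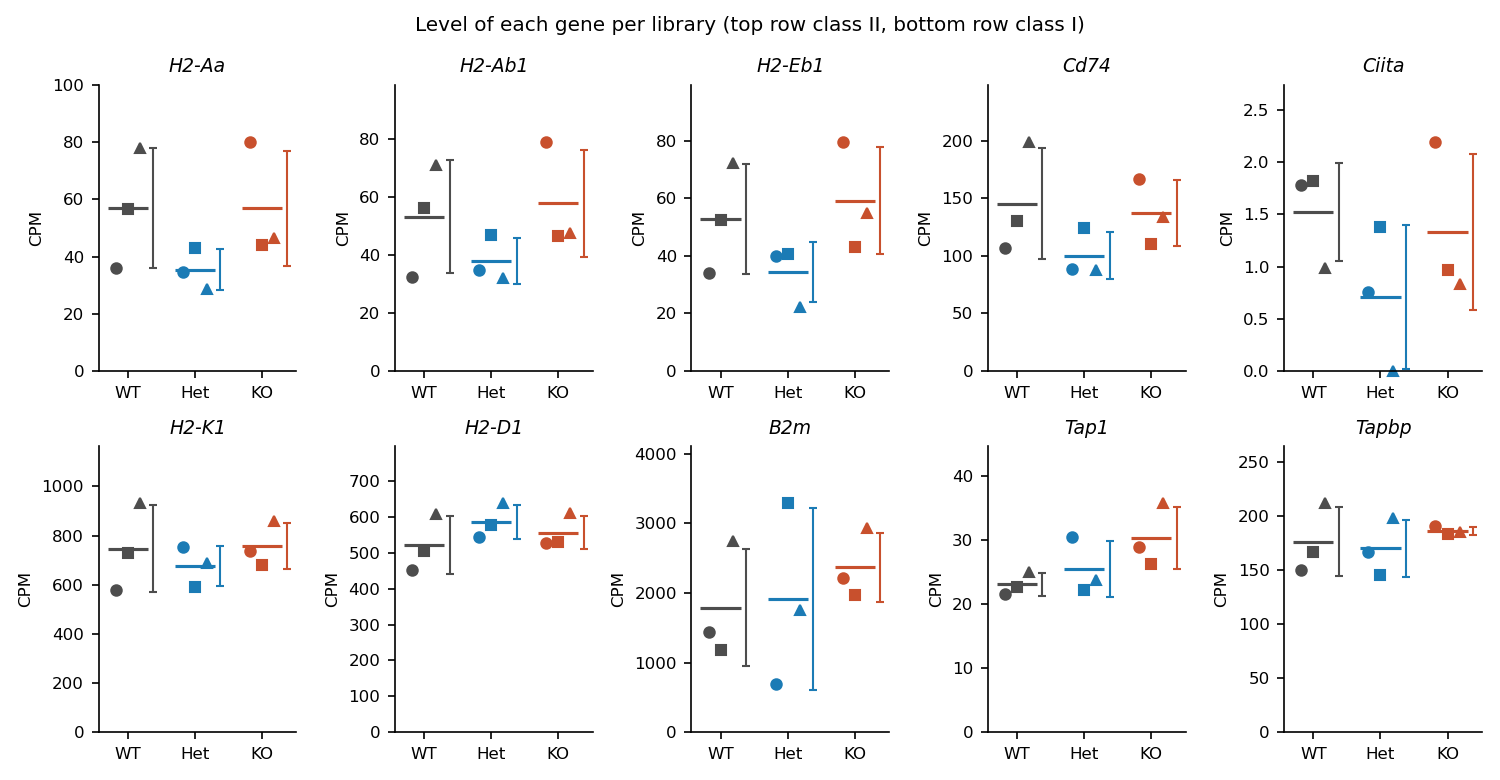
Level of each of the 10 genes in CPM (y axes start at 0) by genotype, with circle, square and triangle for replicates 1, 2 and 3, a horizontal line for the mean and a bar beside it for ± 1 SD (n = 3). The class II genes in the top row have their lowest mean in Het, and B2m spreads from 689 CPM in Het 1 to 3289 CPM in Het 2 while H2-K1 and H2-D1 stay within 1.61-fold.

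The class II genes had their lowest mean level in the Het libraries. H2-Aa, the alpha chain of the I-A molecule, stood at 36.0, 56.7 and 77.9 CPM in WT libraries 1 to 3, at 34.7, 42.8 and 28.6 CPM in Het and at 80.1, 44.0 and 46.3 CPM in KO. Every Het library lay under every KO library, while Het and WT overlapped through WT 1. H2-Ab1, its beta chain partner, stood at 32.3, 56.1 and 70.9 CPM in WT, 34.6, 46.7 and 32.0 in Het and 78.9, 46.6 and 47.4 in KO. WT 3 and KO 1 were again the highest, and Het 2 at 46.7 CPM was just above KO 2 at 46.6 CPM, so no pair of groups was apart.

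H2-Eb1, the beta chain of the I-E molecule, stood at 34.0, 52.5 and 72.3 CPM in WT, 39.9, 40.7 and 22.4 in Het and 79.7, 43.1 and 54.8 in KO. All Het libraries were below all KO libraries, and Het 3 was the lowest of the 9. C57BL/6 mice carry a defective gene for the alpha partner of H2-Eb1 and make no I-E protein on the surface. That partner, H2-Ea-ps, had 0 counts in all 9 libraries, which allows up to 0.0172 CPM over them together (3 counts, counting error only), so the H2-Eb1 transcript was present without it.

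Cd74, the invariant chain that blocks the groove and guides class II to endosomes, lies on chromosome 18 (ENSMUSG00000024610, 60803848 to 60812646). It stood at 106, 130 and 199 CPM in WT, 88.8, 124 and 87.7 in Het and 167, 110 and 134 in KO. Het 1 and Het 3 were below all WT and KO libraries, and Het 2 was not. Ciita, the master regulator of class II transcription, had only 0 to 41 counts per library. Its levels were 1.78, 1.82 and 0.984 CPM in WT, 0.756, 1.38 and 0 in Het, and 2.19, 0.966 and 0.836 in KO. The 0 in Het 3 allows up to 0.165 CPM (3 counts). Ciita overlaps Dexi on the opposite strand, a gene with 11562 counts over the 9 libraries, and strandedness is not stated in the sources, so the few Ciita reads cannot all be assigned to it.

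The class I genes had no genotype in which all 5 means were lowest or highest. H2-K1, a classical heavy chain, stood at 580, 729 and 932 CPM in WT, 753, 590 and 688 in Het and 737, 679 and 862 in KO. The 3 groups overlapped, and the lowest and highest libraries were both WT. H2-D1, the other classical heavy chain of this strain, stood at 451, 505 and 607 CPM in WT, 543, 577 and 637 in Het and 527, 530 and 610 in KO, again overlapping. These 2 genes share sequence with their relatives: 8.79% of the 50-base windows of the H2-K1 transcript and 14.3% of those of H2-D1 occur exactly in transcripts of other genes, so a part of their reads is uncertain. Together they held 77.5% to 86.2% of all counts on the 30 class I heavy chain genes of the H2 region.

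Tap1, a subunit of the peptide transporter, stood at 21.6, 22.6 and 25.1 CPM in WT, 30.5, 22.2 and 23.8 in Het and 28.9, 26.3 and 35.7 in KO. All KO libraries were above all WT libraries. Tapbp, which edits the peptide loaded on class I, stood at 150, 167 and 212 CPM in WT, 167, 146 and 198 in Het and 191, 183 and 185 in KO, with the KO libraries inside the range of the other groups. Tap1 overlaps Psmb9 and Tapbp overlaps Zbtb22 in the deposited coordinates, so reads in the overlap may be split.

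B2m, the light chain shared by all class I molecules, stood at 1440, 1186 and 2747 CPM in WT, 689, 3289 and 1763 in Het and 2211, 1970 and 2929 in KO. The lowest and the highest of the 9 libraries were both Het. Its ratio to the summed FPKM of H2-K1 and H2-D1 ran from 1.60 in Het 1 to 8.51 in Het 2, with a median of 4.92, so the light chain transcript did not keep step with the heavy chains. Svs5, a seminal vesicle secretory protein, ran in the same order in nearly every library: it was lowest in Het 1 (2067 CPM), then WT 2 (10005 CPM) and WT 1 (17180 CPM), and highest in Het 2 (91436 CPM). Among all tested genes outside the 10, Svs5 had the highest correlation with B2m over the 9 libraries (Pearson's r = 0.99 of log2 CPM, Spearman's rho = 0.98, a description chosen after the values of B2m were seen). Svs2 had r = 0.92 (rho = 0.83), and Epcam, an epithelial adhesion molecule, r = -0.83 (rho = -0.83). Which tissue the Svs5 and Svs2 RNA came from, and the part of that tissue in the B2m values, was not tested.

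**Figure D2:**
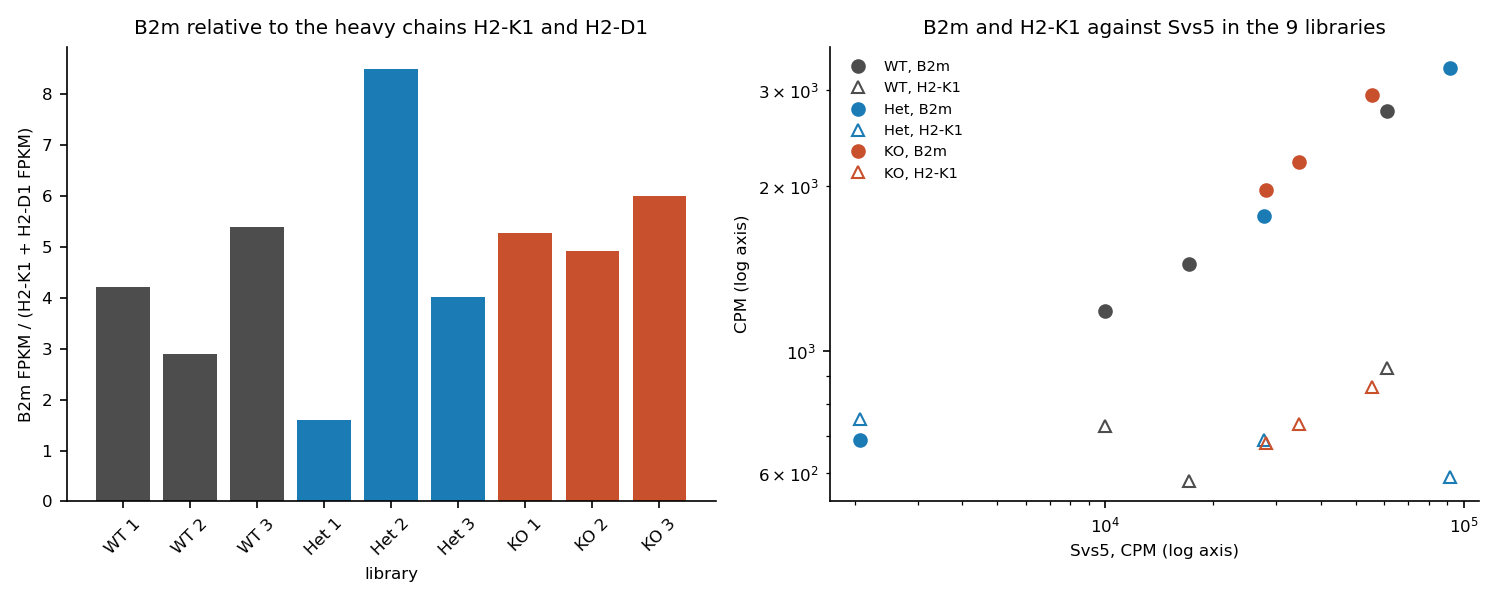
Left, the ratio of B2m FPKM to the summed FPKM of H2-K1 and H2-D1 in each library (bars from 0). Right, B2m (filled circles) and H2-K1 (open triangles) in CPM against Svs5 in CPM, both axes on a log scale, one pair of points per library coloured by genotype. The ratio runs from 1.60 to 8.51, and B2m follows Svs5 (r = 0.99) from Het 1 at the lower left to Het 2 at the upper right.

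In KO against WT, none of the 10 genes passed at an adjusted p under 0.05 in edgeR's quasi-likelihood test, where 0% of the 16836 genes tested were called, and none in DESeq2, where 0.0833% were. The class II values were near 0 and of both signs: H2-Aa had a log2 fold change of -0.00 (SE 0.32, 95% interval -0.71 to 0.70), H2-Ab1 0.12 (SE 0.31, -0.57 to 0.81) and Cd74 -0.08 (SE 0.25, -0.65 to 0.48). H2-Eb1 was at 0.16 (SE 0.34) and Ciita, with few counts, at -0.20 (SE 1.15, -2.76 to 2.37). The lowest edgeR adjusted p among the 10 was 0.9996. All 5 class I values were positive, with a median of 0.09 beside 0.01 over all genes tested.

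The class I member with the smallest p in KO against WT was Tap1, at 0.39 (SE 0.19, 95% interval -0.04 to 0.82, unadjusted p = 0.068, edgeR adjusted p = 0.9996). It was the only member of the 10 whose KO libraries lay wholly above WT, a pattern that 8.14% of all tested genes showed, and no member lay wholly below (6.04% of genes). No member had an unadjusted p under 0.05, where 2.2% of genes did on the higher side and 1.37% on the lower. B2m was at 0.40 (SE 0.52, 95% interval -0.79 to 1.59), H2-D1 at 0.09 (SE 0.16), Tapbp at 0.08 (SE 0.17) and H2-K1 at 0.02 (SE 0.20, -0.42 to 0.47).

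In Het against WT all 5 class II values were negative, with a median of -0.62 beside -0.00 over all genes tested, and none passed. H2-Aa was at -0.68 (SE 0.32, 95% interval -1.40 to 0.03, edgeR adjusted p = 0.566). Cd74 was at -0.54 (SE 0.25, -1.10 to 0.03, edgeR adjusted p = 0.570), H2-Eb1 at -0.62 (SE 0.34) and H2-Ab1 at -0.49 (SE 0.31). Ciita was at -1.09 (SE 1.17, -3.69 to 1.51). Without WT 3 the values were -0.39 for H2-Aa, -0.22 for H2-Ab1, -0.32 for H2-Eb1 and -0.24 for Cd74, and without Het 3 Ciita was at -0.52. Class I was of both signs (median 0.10): H2-D1 0.17 (SE 0.16), Tap1 0.14 (SE 0.19), B2m 0.10 (SE 0.52), Tapbp -0.05 (SE 0.17) and H2-K1 -0.14 (SE 0.20). The calls among the 10 were 0 in edgeR and 0 in DESeq2, where the share over all genes was 0% and 1.22%. None of the 10 had an unadjusted p under 0.05 (5.61% of genes lower, 3.43% higher), and none was wholly below or above WT (8.59% and 4.7% of genes).

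In KO against Het all 5 class II values were positive, with a median of 0.68 beside 0.02 over all genes, and again none passed. The Het libraries enter this comparison and the one before it, so the 2 are not independent. H2-Eb1 had the smallest p of the 10, at 0.78 (SE 0.34, 95% interval 0.03 to 1.54, unadjusted p = 0.0439, edgeR adjusted p = 0.787). H2-Aa was at 0.68 (SE 0.32, -0.03 to 1.39), H2-Ab1 at 0.61 (SE 0.31), Cd74 at 0.45 (SE 0.25) and Ciita at 0.89 (SE 1.16). Without KO 1 the values were 0.35 for H2-Aa, 0.32 for H2-Ab1, 0.51 for H2-Eb1, 0.29 for Cd74 and 0.33 for Ciita. H2-Aa and H2-Eb1, 2 of the 10, lay wholly above Het, as did 7.8% of all genes tested, and 0 lay wholly below (4.12% of genes). An unadjusted p under 0.05 was reached by 1 of the 10 on the higher side (4.42% of genes) and 0 on the lower (1.81%). In class I, B2m was at 0.31 (SE 0.52), Tap1 at 0.25 (SE 0.19), H2-K1 at 0.17 (SE 0.20), Tapbp at 0.13 (SE 0.17) and H2-D1 at -0.08 (SE 0.16). DESeq2 called 1.01% of genes and none of the 10, and edgeR 0% and none.

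**Figure D3:**
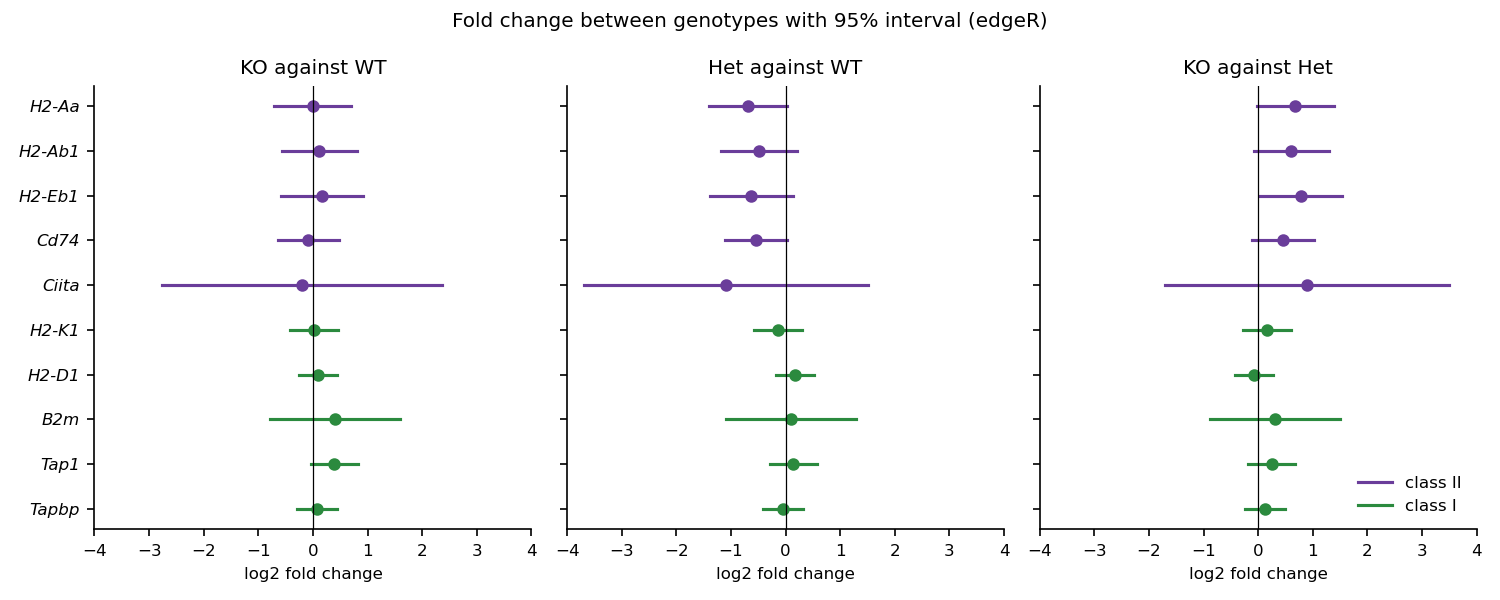
Log2 fold changes of the 10 genes in the 3 comparisons (points) with 95% intervals (lines) from edgeR, class II in purple and class I in green. The class II points lie on the negative side in Het against WT (-0.49 to -1.09) and on the positive side in KO against Het (0.45 to 0.89), and the only interval without 0 is that of H2-Eb1 in KO against Het.

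Across the 9 libraries the class II genes other than Ciita formed a tight block and the class I genes did not. For the 6 pairs among H2-Aa, H2-Ab1, H2-Eb1 and Cd74, Pearson's r of log2 CPM was 0.89 to 0.98 and Spearman's rho 0.95 to 0.97. All 6 passed an exact two-sided permutation test over the 59 relations computed (adjusted p = 0.00195 to 0.0168 for r and 0.00325 to 0.00347 for rho). The closest pair was H2-Aa with H2-Ab1 (r = 0.98, exact permutation p = 3.31e-05, n = 9). Leaving out the 2 libraries farthest from the median of the first gene gave r of 0.81 to 0.94, and the 6 libraries that were not low in Sbp gave 0.91 to 0.99. Ciita with these 4 genes had r of 0.52 to 0.69, none passing (exact permutation test, adjusted p = 0.247 to 0.399). Its values depended on the libraries kept. They were -0.28 to 0.72 without the 2 farthest libraries and 0.75 to 0.93 in the 6 libraries not low in Sbp.

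None of the 10 class I pairs passed. Their r ran from 0.02 (B2m with Tap1) to 0.77 (H2-K1 with Tapbp, exact permutation p = 0.0155, adjusted p = 0.131), and that highest value was -0.16 in the 6 libraries not low in Sbp. Other pairs rose in those 6, such as H2-K1 with Tap1 (0.62 to 0.82) and B2m with Tapbp (0.24 to 0.75). The median over the 10 pairs was 0.42 in the 9 libraries and 0.27 in those 6. H2-K1 with B2m, which pair as proteins, had r = 0.12 (rho = 0.12, adjusted p = 0.935 in the exact permutation test), and H2-K1 with H2-D1 had r = 0.52 (rho = 0.43, adjusted p = 0.399, exact permutation test). Of the 25 pairs of a class II with a class I gene, none passed, with r from -0.66 (Ciita with H2-D1) to 0.59 (Cd74 with B2m). The values include differences between genotypes and share each library's scaling. How often pairs of other genes reach such values was not tested.

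**Figure D4:**
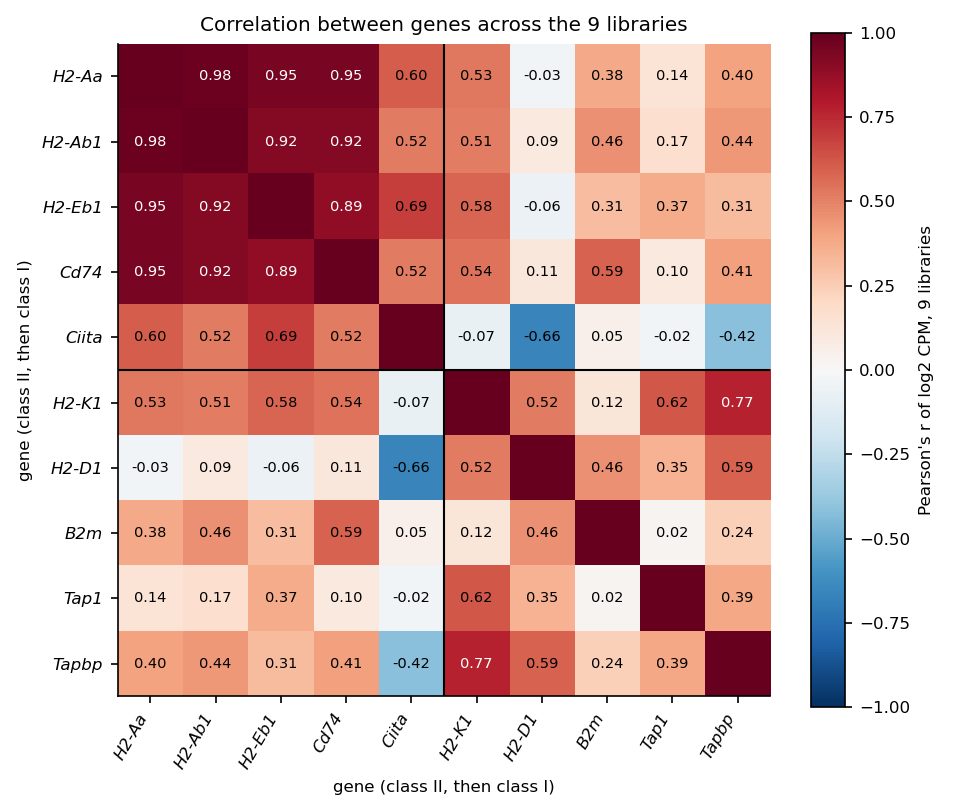
Pearson's r of log2 CPM over the 9 libraries for every pair of the 10 genes, class II first, with a black line between the classes (red positive, blue negative). H2-Aa, H2-Ab1, H2-Eb1 and Cd74 form a block at 0.89 to 0.98, and no class I pair exceeds 0.77.

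The genes whose pattern was most like the class II mean (mean of the 5 centred log2 CPM values, Pearson's r over 9 libraries, a description with no test) were Trpc6 (0.97), a cation channel, Tfpt (0.97), Atn1 (0.95), a transcriptional corepressor, Scarf1 (0.95), a scavenger receptor, and Gm17201 (0.95). Those most like the class I mean were Mnd1 (0.95), a meiotic recombination protein, Clca3a1 (0.94), Serpina3g (0.94), a serine protease inhibitor, Itgax (0.94), the integrin CD11c of dendritic cells and some macrophages, and Pip4k2a (0.91), a lipid kinase. The values were centred but not scaled, so the most variable gene weighed most in each mean. In class II that was Ciita, with few counts and 0 in Het 3, and in class I it was B2m, which varied 4.77-fold.

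Other parts of the class II pathway did not share the low Het mean throughout. Of the 18 listed genes, 17 matched and 13 were tested, and none passed in edgeR or DESeq2 in any comparison. In Het against WT, 5 were positive and 8 negative, with a median of -0.12. H2-DMa and H2-DMb1, which form the editor that swaps the Cd74 fragment for peptide, ran from 4.39 to 13.0 CPM and from 2.82 to 9.77 CPM. Ifi30, a lysosomal thiol reductase, had means of 76.9 (WT), 61.1 (Het) and 62.3 CPM (KO) (Het against WT -0.33, SE 0.14). Ctsl, a lysosomal protease, averaged 101.5 CPM in WT against 167 in Het (0.72, SE 0.22, unadjusted p = 0.00913, edgeR adjusted p = 0.419) and 149.7 in KO (0.56, SE 0.22, unadjusted p = 0.0303). H2-Ob, a chain of the H2-O modulator, had 0, 2 and 0 counts in WT and 23, 18 and 12 in KO, and H2-DMb2 had 0 in each Het library, 6 to 11 in KO, and 18, 0 and 0 in WT.

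Other class I heavy chains and class I-like genes (20 listed, 15 tested) had medians of 0.15 for KO over WT, 0.10 for Het over WT and 0.13 for KO over Het, and none passed. H2-T23, which encodes Qa-1, a ligand of NK cell receptors, had group means of 79.7 (WT), 98.1 (Het) and 121 CPM (KO), with KO against WT at 0.61 (SE 0.29, edgeR adjusted p = 0.9996). Mr1, which shows microbial metabolites to MAIT cells, averaged 45.05, 30.4 and 34.5 CPM (Het against WT -0.57, SE 0.26), and Fcgrt, the neonatal Fc receptor, 32.6, 23.4 and 37.8 CPM (KO against Het 0.69, SE 0.30). H2-Q10, a secreted heavy chain best known from liver and chosen after its values were seen, ran from 0.207 CPM in WT 3 to 65.1 CPM in Het 1. It was lowest in the 3 libraries low in Sbp, at 1.72 in WT 1, 0.207 in WT 3 and 4.59 in Het 2, against 10.3 CPM or more elsewhere.

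The class I loading machinery (17 genes, all tested) had 0 calls in each comparison in edgeR and DESeq2. Psmb9, an immunoproteasome subunit beside Tap1, had means of 10.6 (WT), 9.30 (Het) and 17.1 CPM (KO) (KO against Het 0.88, SE 0.31, unadjusted p = 0.0176, edgeR adjusted p = 0.696). Calr, the chaperone calreticulin, averaged 1648, 1062 and 1328 CPM (Het against WT -0.63, SE 0.19, unadjusted p = 0.00687, edgeR adjusted p = 0.419), and Pdia3, the disulfide isomerase of the loading complex, 1046, 803 and 819 CPM (Het against WT -0.38, SE 0.17). Nlrc5, the class I transactivator, ran from 1.93 to 10.2 CPM, the highest in Het 2.

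On the interferon-gamma axis, 22 of 23 genes were tested and edgeR called none. Ifng itself had 0 counts in each WT and Het library and a mean of 0.017 CPM in KO (highest library 0.052 CPM), so it was hardly detected in any genotype. Ifngr1, a chain of the interferon-gamma receptor, averaged 74.9 CPM in WT and 37.9 in Het and was called lower in Het by DESeq2, which called 1.22% of all genes in that comparison, and not by edgeR (-0.98, SE 0.21, edgeR adjusted p = 0.392, DESeq2 adjusted p = 0.0199). The list's median was 0.26 for KO over WT, 0.17 for Het over WT and 0.16 for KO over Het.

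The macrophage and dendritic cell lists also had their lowest median sum in Het. The pan-leukocyte sum given below, of which Cd52 and Lcp1 made up most, did not. Summed over 15 macrophage genes, the level was 188 to 203 CPM in WT, 90.7 to 141 in Het and 136 to 206 in KO. Over 12 dendritic cell genes it was 18.4 to 23.2, 8.33 to 12.8 and 16.6 to 28.0 CPM, with Siglech, Ccr7 and Cd207 at 0 in every Het library and Cd207 at 0 in all 9. Ccr7 was low in WT too, at 0 to 0.414 CPM. Flt3 went the other way, at 0 in every WT library with a Het mean of 0.168 CPM. Xcr1 averaged 0.294 CPM in Het against 0.174 in WT. In Het against WT, 12 of 15 macrophage genes and 7 of 9 tested dendritic cell genes were negative (medians -0.72 and -1.32). The edgeR test called none of them, and DESeq2 called 0 of the macrophage genes and 1 dendritic cell gene, Siglech, a plasmacytoid dendritic cell receptor, beside 1.22% of all genes. C1qa, a complement component of tissue macrophages, averaged 26.6, 13.8 and 29.3 CPM in WT, Het and KO (Het against WT -0.95, SE 0.29, unadjusted p = 0.00859), and Tyrobp, a myeloid signalling adaptor, 4.99, 1.39 and 5.19 CPM (-1.84, SE 0.55, unadjusted p = 0.0075). In bulk tissue fewer cells of a type and less RNA per cell cannot be told apart.

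**Figure D5:**
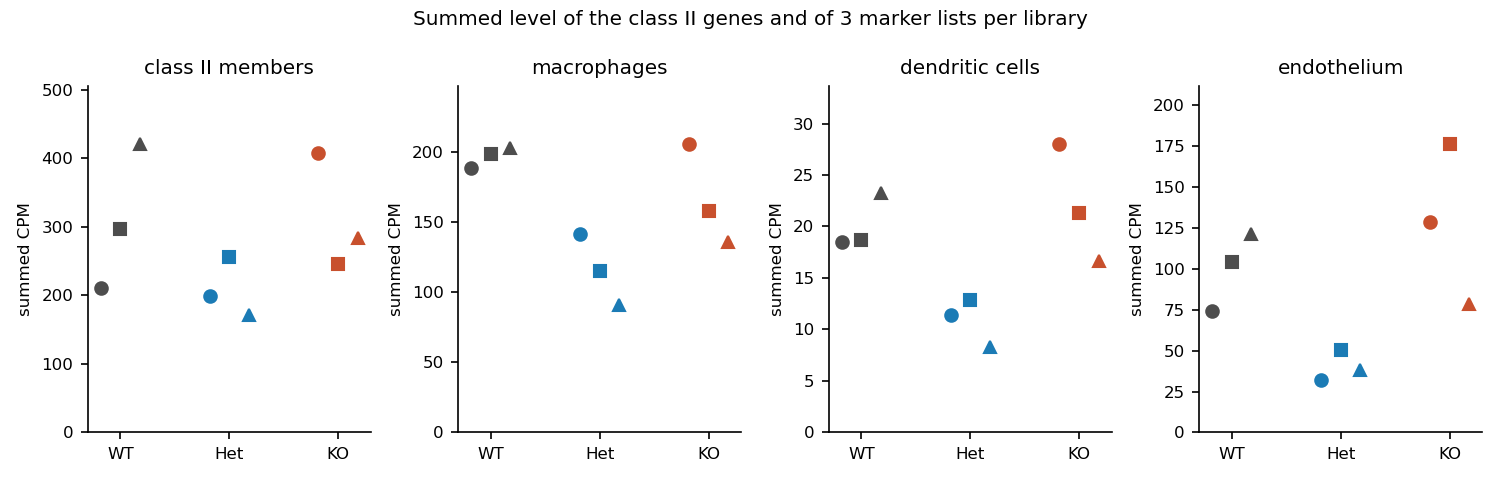
Summed CPM per library of the 5 class II genes and of the macrophage (15 genes), dendritic cell (12 genes) and endothelial (10 genes) lists, by genotype, with circle, square and triangle for replicates 1, 2 and 3 and axes from 0. The Het libraries are wholly below WT for the 3 marker lists and overlap WT for the class II genes, at 171 to 256 against 211 to 421 CPM.

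Endothelial genes stood at 74.0 to 122 summed CPM in WT, 32.2 to 50.3 in Het and 78.7 to 176 in KO over 10 genes, all 10 negative in Het against WT (median -1.22, 4 of the 10 called by DESeq2, which called 1.22% of all genes there, and 0 by edgeR). Skeletal muscle genes, 12 in all, had summed levels of 342 to 1350 CPM in WT, 144 to 662 in Het and 770 to 5620 in KO. Of the relations between H2-Aa and single markers, the highest were with Pecam1, an endothelial adhesion molecule (r = 0.76, rho = 0.77, exact permutation p = 0.0182, adjusted p = 0.134, n = 9), and Csf1r, the macrophage growth factor receptor (r = 0.75, rho = 0.68, exact permutation p = 0.0212, adjusted p = 0.139, n = 9). In the 6 libraries not low in Sbp these were 0.67 and 0.90. With Ptprc, the pan-leukocyte antigen, r was 0.58 (rho = 0.60, exact permutation p = 0.0947, adjusted p = 0.317). H2-K1 had r of 0.12 with Csf1r, 0.27 with Ptprc and 0.34 with Pecam1, none passing in the same test. With Itgax the order was the other way, at r = 0.59 for H2-K1 and 0.36 for H2-Aa, neither passing. In the 6 libraries not low in Sbp these 2 values were 0.23 and -0.01. The part of these cells and of muscle in the class II values was not tested beyond these relations.

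Lymphocyte markers were sparse. Cd79a, Pax5 and Ighd, which mark B cells, had 0 counts in every Het library. Their WT means were near 0 too, at 0.122, 0.0174 and 0.104 CPM, and each had a WT library at 0. Other genes of the list went the other way. Cr2 averaged 12.3 CPM in Het (0.108 to 22.6) against 5.96 in WT, and Blk 0.386 against 0.0348 CPM. Cd22 and Cd79b also had a higher mean in Het than in WT. Of the 4 B cell genes tested in Het against WT, 1 was positive and 3 were negative. The summed level of 11 B cell genes was 20.3 to 38.1 CPM in WT, 6.64 to 32.1 in Het and 23.3 to 71.9 in KO, and that of 14 T and NK cell genes was 4.55 to 8.81, 4.36 to 6.38 and 5.16 to 13.7 CPM. Cd37, a tetraspanin of B cells and other leukocytes, had 2, 0 and 0 counts in the Het libraries against 35 to 44 in WT, and was called in Het against WT by DESeq2 (1.22% of all genes) and not by edgeR (edgeR adjusted p = 0.392, DESeq2 adjusted p = 0.00179). The summed pan-leukocyte list (8 genes) stood at 377 to 1008 CPM in WT (median 538), 219 to 1131 in Het (median 1091, the highest of the 3) and 541 to 684 in KO (median 578). Most of that sum was Cd52 (means of 427, 576 and 405 CPM in WT, Het and KO) and Lcp1 (151, 181 and 133 CPM). Of the 8 genes, 5 were negative and 3 positive in Het against WT (median -0.29), with 0 called by edgeR or DESeq2. Cd52, which epididymal epithelium also expresses, had 33.5 CPM in Het 1 and 822 and 871 CPM in Het 2 and Het 3.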

How the data were processed

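The authors deposited a table of unnormalised whole read counts for 9 prostate libraries, and FPKM values for each library, per the file headers. Per the submitters' processing notes, reads were placed on GRCm38 (mm10). The sources do not state the aligner, the counter or the strand setting. Counts of all 9 libraries entered 1 edgeR 4.0.16 quasi-likelihood model in R 4.3.3 (genotype only, TMM, robust), after filterByExpr kept 16836 of 54532 genes, with Benjamini-Hochberg adjustment over all of them. SE was computed as |log2 fold change| divided by √F. DESeq2 1.42.0 and limma 3.58.1 were alternatives. Log2 CPM used a prior count of 2. The test was also run on simulated counts that gave every gene the same dispersion (spread). That run does not show how the test performs on these libraries. Replicate numbers follow accession order and pair nothing. The members, lists and alternatives were chosen with earlier results of these data known. Named genes are the 10 members, up to 4 genes of smallest p per list, and the 5 genes most like each class mean. H2-Q10, Svs5, Svs2, Epcam, Nlrc5, H2-DMa, H2-DMb1, Ifng and Cd52 were named after their values were seen. So were Svs1, Svs3a, Svs3b, Svs6, Lcp1, Flt3, Xcr1, Cr2, Blk, Cd22 and Cd79b. Promoter sequences are from RefSeq (GRCm38.p6). Bounds and intervals for 0 counts cover counting error only. Results for some items of the gene lists are not reported here.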

Additional observations from a re-analysis of the deposited data

How the results depend on the processing

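Each of the 30 results (10 genes, 3 comparisons) was recomputed under each alternative, and none of the 516 values was called. All 5 class II genes kept their sign in every alternative run for Het against WT and KO against Het, but not their size. In Het against WT the values ran from -0.93 to -0.39 for H2-Aa, -0.76 to -0.22 for H2-Ab1, -1.005 to -0.32 for H2-Eb1, -0.73 to -0.24 for Cd74 and -4.98 to -0.52 for Ciita. In KO against Het they ran from 0.35 to 0.86, 0.32 to 0.80, 0.51 to 0.99, 0.29 to 0.64 and 0.32 to 4.43. The sign turned 35 times, in 15 results. The setting without the 3 libraries low in Sbp left only WT 2 in the WT group, so its values against WT rest on 1 library. In KO against WT, H2-Aa turned to 0.0099 with library sizes without the genes over 1% and to 0.011 in limma voom. It turned to 0.0042 without the 3 libraries low in Sbp. Cd74 turned to 0.076 without those 3 libraries, H2-Eb1 to -0.023 and H2-K1 to -0.011 in voom with quality weights. In Het against WT, B2m turned to -0.081 in limma voom, Tapbp to 0.15 with quality weights and to 0.12 without the 3 libraries, and H2-K1 to 0.034 with class I heavy chains summed. In KO against Het, Tapbp turned to -0.044 with quality weights and H2-D1 to 0.069 with the heavy chains summed. Leaving out 1 library at a time gave, in KO against WT, H2-Aa -0.33 to 0.28, H2-Ab1 -0.18 to 0.38, H2-Eb1 -0.11 to 0.44, Cd74 -0.26 to 0.21, Ciita -0.76 to 0.041, H2-K1 -0.13 to 0.21, H2-D1 -0.0012 to 0.21 and Tapbp -0.025 to 0.23. In Het against WT it gave B2m -0.57 to 0.53, H2-K1 -0.30 to 0.056, Tap1 -0.0081 to 0.23 and Tapbp -0.18 to 0.11, and in KO against Het B2m -0.088 to 0.95. Counts are not given for the setting without the 3 libraries. Counts of genes called were 0 in each comparison in edgeR. They were 699 in Het against WT with quality weights, 2 in KO against Het with no filter and 1 in KO against WT with only those genotypes. In DESeq2 they were 14, 205 and 169 (KO against WT, Het against WT, KO against Het). Leaving out 1 library gave 0 to 1, 0 to 258 and 0 to 18, each maximum without Het 1. The cause was not tested. Of 177 correlation values under alternatives, 59 moved by more than 0.2. No paired analysis was possible because the labels carry no shared replicate numbers. The 0 to 41 counts of Ciita limit what can be seen of it.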

Other observations

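B2m is counted among the class I genes, yet the genes that ran most like it over the 9 libraries were, after Svs5, Shisa4 (Pearson's r = 0.98), B3gnt8 (0.98), a glycosyltransferase, Cttnbp2nl (0.98) and Gdpd2 (0.98). Its highest correlation with another of the 10 was with Cd74 (r = 0.59, adjusted p = 0.317, exact permutation test, n = 9). The first values are a description chosen after B2m was seen to spread 4.77-fold. Svs4 had r = 0.88 with B2m and Sbp r = -0.36.

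The H2-K1 to H2-D1 ratio of FPKM was 1.01 in Het 2 and 1.07 in Het 3, and 1.27 to 1.52 in the other 7 libraries, Het 1 among them at 1.37.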
